A study of Mus musculus with 6 samples.

Results

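The Hedgehog genes examined here are 9 genes that cover the pathway from signal to transcription factor: the ligand *Shh*, the receptor *Ptch1*, the co-receptor *Gas1*, the ligand-binding inhibitor *Hhip*, the signal transducer *Smo*, the GLI inhibitor *Sufu* and the transcription factors *Gli1*, *Gli2* and *Gli3*. They were chosen by name and found by Ensembl identifier in the count table, where they make up 9 of 26579 genes. All 9 passed the filter on low counts (a level of 1 CPM, counts scaled to the size of the library, reached by 3 or more libraries) and are among the 15102 genes tested. The skin came from the dorsal neck of female littermates at 33 days of age, with 3 wild type (WT) mice and 3 YAP2-5SA-∆C (TG) mice, and 1 library was made per mouse. YAP2-5SA-∆C is a mildly active mutant of YAP, the coactivator restrained by the Hippo kinases, and the transgene acts in basal keratinocytes. The TG mice had the first outward signs of their skin phenotype. The libraries were made from punch biopsies of whole skin, so each value is a sum over epidermis, hair follicle, dermis and the other cells of the skin, and fewer cells of a type cannot be told apart from less RNA per cell.

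Hedgehog ligand binds the receptor PTCH1, which in the absence of ligand holds the membrane protein SMO inactive. Active SMO acts in the primary cilium to release the GLI proteins from SUFU, whereupon GLI2 and GLI1 activate transcription, while GLI3 acts mostly as a repressor when no ligand is bound. *Gli1*, *Ptch1* and *Hhip* are themselves transcribed in response to the signal and are widely used as its readouts. In skin, *Shh* is made by epithelial cells of the growing hair follicle, and the signal is received by follicle epithelium and by the dermal papilla and dermis around it. Excess signalling in keratinocytes is the hallmark of basal cell carcinoma.

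Total counts per library ranged from 11225705 to 19505036. On a multidimensional scaling plot, TG replicate 2 lay apart from the other libraries, at 2.24 on the first dimension against 0.26 and 0.30 for the other TG mice and -1.20 to -0.51 for WT. As a check of the tissue, the list of 6 basal keratinocyte genes summed to 3315 to 3921 CPM in WT and 5406 to 6987 CPM in TG. All 6 had positive log2 fold changes, the genotypes did not overlap in 4 of them (33.8% of all tested genes), and 1, *Krt14*, a keratin of basal keratinocytes, passed the main test (log2 fold change 0.95, FDR 0.0300 in the quasi-likelihood test of edgeR, QL), which called 1.91% of all genes. That test called 0 genes, *Krt14* included, without WT replicate 2, WT replicate 3 or TG replicate 3, at 2726, 2844 and 3691 genes with an unadjusted p under 0.05.

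None of the 9 Hedgehog genes changed between the genotypes in the main test, QL, with p-values adjusted by Benjamini-Hochberg (FDR) over all tested genes and a threshold of 0.05. Over all tested genes, 1.91% passed that threshold. *Gas1* came closest, 1.32-fold higher in TG with an FDR of 0.0622, and *Gli3* was next, at 0.712 of its WT level with an FDR of 0.0982. The other 7 genes had FDR values from 0.187 to 0.836. At an unadjusted QL p under 0.05 there were 3 genes, *Gas1*, *Gli3* and *Hhip*, against 26.3% of all tested genes. The genotypes did not overlap in CPM in the same 3 of 9, against 33.8% of all tested genes. Both counts, 3 of 9, are close to the share over all genes. The likelihood-ratio test of edgeR (LRT), which the study used, called 0 of the 9 where it called 10.4% of all genes, and voom called 0 where it called 1.65% of all genes. At an unadjusted p under 0.05 there were 3 of the 9 in LRT and 2 in voom, against 20% and 26.4% of all genes. The Wald test of DESeq2 called *Gas1* and *Gli3*, where it called 10.5% of all genes. The median log2 fold change of the 9 was 0.05, beside -0.01 over all tested genes.

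**Figure D1:**
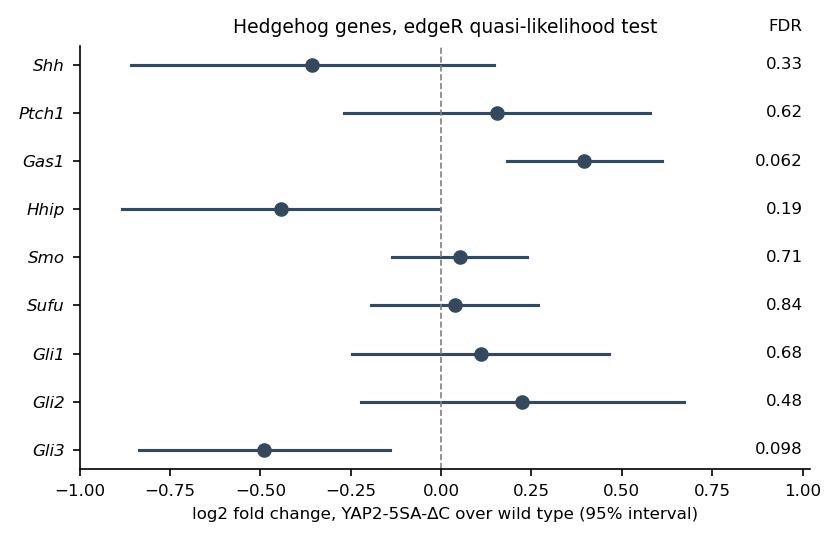
Log2 fold change of the 9 Hedgehog genes, YAP2-5SA-∆C over wild type, with the 95% interval of edgeR's quasi-likelihood fit (horizontal axis) and the FDR of each gene at the right, over 3 mice per genotype. The intervals of *Gas1* and *Gli3* lie clear of 0, that of *Hhip* ends at -0.004, and no FDR is below 0.05.

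Promoter sequences are shown for the 2 genes whose values separated the genotypes most clearly, *Gli3* and *Gas1*, and for the 1 gene of the set with a match to a TEAD word, since YAP acts with TEAD factors. The sequences are those of RefSeq on GRCm38.p6, and 7 of the 9 genes have an entry in the promoter table used, which spans 250 bases before to 50 bases after each start. *Shh* and *Gli1* have none. The first 2 sequences are the 60 bases before the RefSeq start, written 5′ to 3′ on the strand of the gene with CpG dinucleotides in capitals. That of *Gli3* lies at chr13:15463663-15463722 (plus strand) and holds 10 CpG, and that of *Gas1* lies at chr13:60177536-60177595 (minus strand) and holds 5. Over the whole window of 300 bases *Gli3* has 39 CpG and *Gas1* has 17, where the median over 32851 promoters is 7. RefSeq and GENCODE M21 place the starts of both genes differently. In GENCODE the *Gli3* stretch lies inside the *Gli3* gene, which begins at 15463235. The *Gas1* stretch lies outside the *Gas1* gene, which reaches to 60177365. Noncoding genes of the opposite strand share exon bases with the 2 genes, Gm6556 with *Gli3* and Gm48488 with *Gas1*. In the third sequence, from *Smo* at chr6:29735460-29735496 (plus strand), capitals mark the TEAD word, which reads GGAATG on the minus strand and lies 17 bases before the start.
*Gli3*: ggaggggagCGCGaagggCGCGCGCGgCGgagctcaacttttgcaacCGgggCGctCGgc
*Gas1*: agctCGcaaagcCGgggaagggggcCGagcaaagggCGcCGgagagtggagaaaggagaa
*Smo*: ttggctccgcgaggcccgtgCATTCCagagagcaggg

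The TEAD word GGAATG, searched on both strands, was found in 1 of the 7 promoters, that of *Smo*, and in 14.7% of all promoters of the table. The GLI word GACCACCCA, also searched on both strands, was found in 0 of the 7, either exactly or with 1 mismatch allowed, and in 0.253% and 6.74% of all promoters. These matches describe letters in a short window near the start and say nothing of sites elsewhere. The study counts *Gli2* among the known targets of YAP and TEAD and reported such motifs in its 3′ UTR, a region not searched here.

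*Shh* (ENSMUSG00000002633, chromosome 5 of GRCm38 from 28456815 to 28467256), the secreted ligand, was the member with the fewest counts, 53 to 130 per library. Its levels were 7.15, 5.02 and 5.04 CPM in WT replicates 1, 2 and 3 and 4.78, 3.47 and 5.24 CPM in TG replicates 1, 2 and 3. WT replicate 1 was the highest library and TG replicate 2 the lowest, and the other 4 lay within a narrow band in which the genotypes overlapped. The means were 5.74 ± 1.22 and 4.50 ± 0.919 CPM (SD, n = 3 each), and the log2 fold change of -0.36 (SE 0.21, 95% interval -0.86 to 0.15) had an edgeR QL FDR of 0.328. This estimate rests on the 2 outer libraries, since it was -0.16 without WT replicate 1 and -0.19 without TG replicate 2. Exons of *Shh*, which had 508 counts in all, share bases with those of 2 genes on the opposite strand, 9530036O11Rik (446 bases, 54 counts in all) and Gm26894 (361 bases, 39 counts). Both were counted as genes of their own. Without a stated strand setting it is not known how reads in the shared bases were assigned.

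*Ptch1* (ENSMUSG00000021466, chromosome 13 from 63508328 to 63573598) encodes the receptor and is a target of the signal it receives. It was measured at 83.3, 56.0 and 68.1 CPM in WT and at 83.8, 86.4 and 60.8 CPM in TG, in the order of the replicate numbers. The genotypes overlapped over most of their range, with the lowest value in WT and the highest in TG. The log2 fold change was 0.16 (SE 0.18, 95% interval -0.27 to 0.58; edgeR QL FDR 0.617). The interval allows anything from 0.831 to 1.49 times the WT level, and the estimate was 0.02 without WT replicate 2, the lowest library, 0.32 without WT replicate 1, 0.30 without TG replicate 3 and 0.08 without TG replicate 2.

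*Gas1* (ENSMUSG00000052957, chromosome 13 from 60174405 to 60177365, a gene of 1 exon) encodes a co-receptor anchored in the membrane that binds ligand together with PTCH1. In WT its levels were 46.1, 43.9 and 45.5 CPM and in TG 57.3, 67.3 and 53.7 CPM. All 3 TG mice lay above all 3 WT mice, and the WT values were nearly alike, with a coefficient of variation of 2.52% against 11.8% in TG. The means were 45.2 ± 1.14 and 59.4 ± 7.04 CPM (SD, n = 3 each), and the log2 fold change was 0.40 (SE 0.09, 95% interval 0.18 to 0.61). The unadjusted p of edgeR QL was 0.00329, which put *Gas1* at rank 796 among all tested genes, and the FDR was 0.0622. It was 0.0772 in LRT, 0.0665 in voom and 0.00795 in DESeq2. Without TG replicate 2, the highest of the 6 libraries, edgeR QL gave a log2 fold change of 0.31 and an FDR of 0.0407, in a fit that called 5.46% of all genes, whereas the LRT FDR was 0.149. Gm48488, a noncoding gene of the opposite strand, shares 589 bases with the *Gas1* exon and has no counts of its own. Without a stated strand setting, reads of Gm48488 could be among those counted for *Gas1*.

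*Hhip* (ENSMUSG00000064325, chromosome 8 from 79965851 to 80058006) encodes a membrane protein that binds and sequesters ligand, and is a target of the signal. The values were 13.0, 9.00 and 9.70 CPM in WT and 8.90, 6.35 and 8.11 CPM in TG. All TG mice lay below all WT mice, though WT replicate 2 and TG replicate 1 were nearly equal. The log2 fold change was -0.44 (SE 0.19, 95% interval -0.88 to -0.004; edgeR QL FDR 0.187). Without WT replicate 1, the highest library, it was -0.26, and without TG replicate 2, the lowest, it was -0.30.

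*Smo* (ENSMUSG00000001761, chromosome 6 from 29735503 to 29761365), which encodes the transducer that PTCH1 holds in check, was at 80.6, 74.5 and 83.8 CPM in WT and 86.8, 85.5 and 75.1 CPM in TG. *Sufu* (ENSMUSG00000025231, chromosome 19 from 46396896 to 46488804), which encodes the protein that retains GLI factors in the cytoplasm, was at 17.0, 16.7 and 15.1 CPM in WT and 17.9, 17.3 and 15.0 CPM in TG. Both genes were at close to the same level in every mouse. Their log2 fold changes were 0.05 (95% interval -0.13 to 0.24) and 0.04 (95% interval -0.19 to 0.27), and their edgeR QL FDR values were 0.713 and 0.836. For *Smo* these data bound a difference to between 0.911 and 1.18 times the WT level, the narrowest interval among the 9 genes. With single libraries left out the *Smo* estimate ran from 0.005 (without WT replicate 2) to 0.12 (without TG replicate 3), and that of *Sufu* from -0.003 (without WT replicate 3) to 0.11 (without TG replicate 3).

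*Gli1* (ENSMUSG00000025407, chromosome 10 from 127329882 to 127341974) encodes a transcriptional activator whose own transcription is the most direct readout of the signal. Its levels were 40.0, 27.7 and 33.9 CPM in WT and 37.9, 40.3 and 31.3 CPM in TG. The genotypes overlapped, and the TG mice lay within the WT range but for replicate 2, which was just above it. The log2 fold change was 0.11 (SE 0.15, 95% interval -0.25 to 0.47; edgeR QL FDR 0.680). It turned to -0.02 without WT replicate 2, the lowest library.

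*Gli2* (ENSMUSG00000048402, chromosome 1 from 118834132 to 119053619) encodes the main activator through which the signal starts transcription. It was measured at 27.8, 22.7 and 32.2 CPM in WT and 29.9, 40.5 and 26.0 CPM in TG. TG replicate 2 stood highest, while the other TG mice lay within the WT range. The log2 fold change was 0.23 (SE 0.19, 95% interval -0.22 to 0.67; edgeR QL FDR 0.484), and with single libraries left out it ran from 0.04 (without TG replicate 2) and 0.10 (without WT replicate 2) to 0.36 (without WT replicate 3 or TG replicate 3).

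*Gli3* (ENSMUSG00000021318, chromosome 13 from 15463235 to 15730026) encodes the GLI factor that is cut to a repressor form when the pathway is off. In WT its levels were 57.6, 54.7 and 58.5 CPM and in TG 48.9, 31.7 and 41.1 CPM. All TG mice lay below all WT mice, and the spread was wider in TG, with a coefficient of variation of 21.3% against 3.50% in WT. The means were 56.9 ± 1.99 and 40.5 ± 8.63 CPM (SD, n = 3 each), and the log2 fold change was -0.49 (SE 0.15, 95% interval -0.84 to -0.14). The unadjusted p of edgeR QL was 0.0126. The FDR was 0.0982 in edgeR QL, 0.0586 in LRT, 0.0916 in voom and 0.0265 in DESeq2. LRT called *Gli3* once TG replicate 1 was left out (log2 fold change -0.63, edgeR LRT FDR 0.0202), in a fit that called 9.39% of all genes. Without TG replicate 2, the lowest library, the QL log2 fold change was -0.32.

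**Figure D2:**
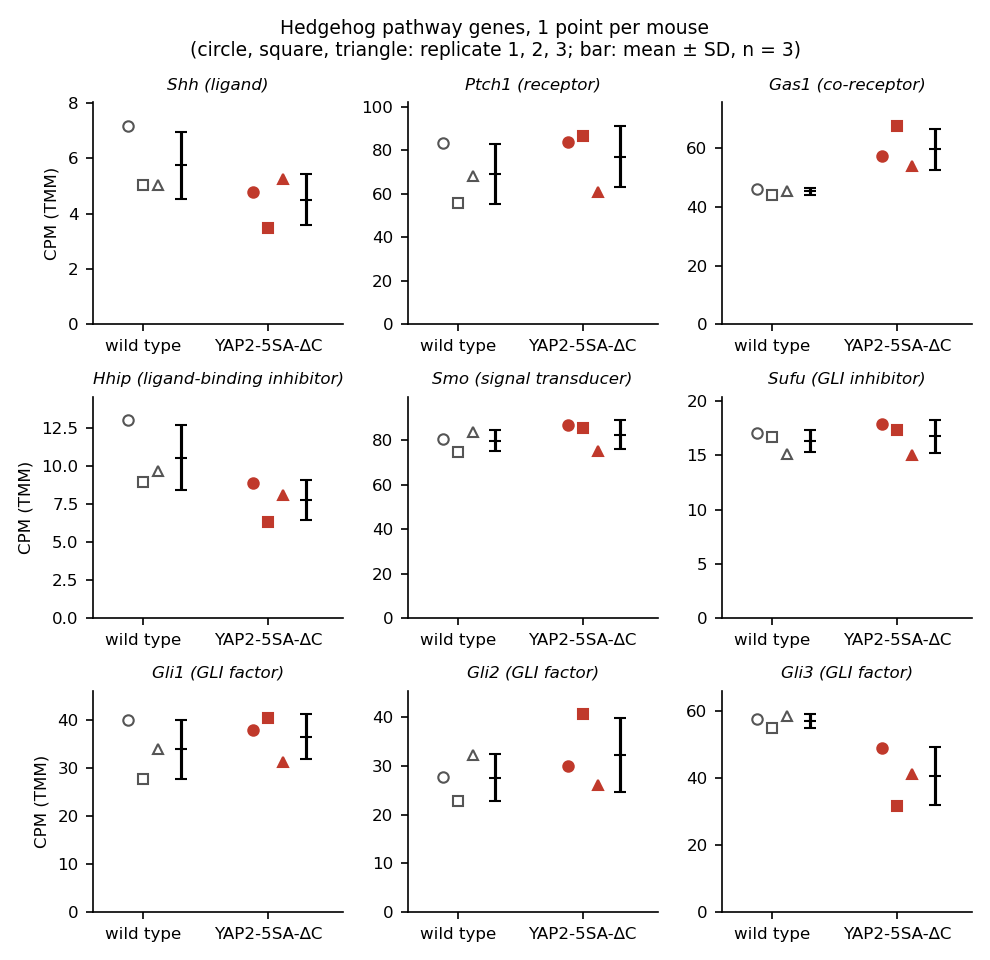
CPM (TMM-scaled, vertical axis from 0) of the 9 Hedgehog genes in each wild type mouse (open grey symbols) and each YAP2-5SA-∆C mouse (filled red symbols), with circle, square and triangle for replicates 1, 2 and 3 and bars for the mean ± SD (n = 3). For *Gas1* all red symbols lie above all grey ones, for *Gli3* and *Hhip* all lie below, and for the other 6 genes the genotypes overlap.

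The 3 GLI genes had log2 fold changes of different sign, none of which passed the main test, and the differences between them were not tested. The ratio of *Gli3* to *Gli2* counts within a library, which needs no scaling between libraries, was 2.07, 2.41 and 1.82 in WT and 1.63, 0.782 and 1.58 in TG. Every WT library held more *Gli3* relative to *Gli2* than every TG library, and TG replicate 2 was the only library with fewer *Gli3* than *Gli2* counts. The ratio was chosen after the values of the genes were seen and is given without a test.

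Across the 6 mice, *Gli1* and *Ptch1*, both transcribed in response to the signal, varied together. The ratio of *Gli1* to *Ptch1* counts was 0.480, 0.495 and 0.497 in WT and 0.453, 0.466 and 0.515 in TG. Within WT, the coefficient of variation was 18.1% for *Gli1* and 19.8% for *Ptch1*, whereas the ratio was 0.491 ± 0.010 (SD, n = 3), so that mice with more of one transcript had more of the other in near proportion. The Pearson correlation of their log2 CPM over the 6 libraries was 0.98, and *Ptch1* ranked 8 among 13891 tested protein-coding genes by likeness to *Gli1*. *Shh* and *Hhip* also varied together, with a correlation of 0.95, a rank of 59 for *Hhip* by likeness to *Shh*, and count ratios of 0.549, 0.558 and 0.520 in WT and 0.538, 0.546 and 0.646 in TG. For *Hhip*, also a target of the signal, the correlation over all 6 libraries was 0.05 with *Gli1* and 0.01 with *Ptch1*, although within WT all 3 genes were highest in replicate 1 and lowest in replicate 2. The correlation of *Shh* with *Gli1* was -0.08 and with *Ptch1* was -0.14, and that of *Gli3* with *Gas1* was -0.91. These correlations describe 6 libraries that also differ in genotype, in hair gene levels and in depth, and these pairs too were chosen after the values were seen.

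The genes nearest to each Hedgehog gene over the 6 libraries, by Pearson correlation of log2 CPM, were mostly genes of other functions. For *Gli1* they were *Asxl1* (r = 0.998), *Tnrc6b* (0.993) and *Cercam* (0.991), and for *Ptch1* they were *Dnmt1* (0.994), *Asxl1* (0.993) and *Cercam* (0.987), so that 2 of the 3 were shared. *Gli3* was nearest to *Rnft2*, *Fmn1* and *Rnf180* and *Gas1* to *Lypd3*, *Tmprss11g* and *Oas1f*, and each had over 20 genes above 0.99 (22 and 23). *Shh* was nearest to *Sae1*, *Sass6* and *Alg8*, *Hhip* to *Rnf32*, *Hmgb2* and *Eif5a2*, and *Gli2* to *Dot1l*, *Egr3* and *Nrd1*. *Smo* was nearest to *Rps28*, *Dicer1* and *Nhsl2*, and *Sufu* to 3110082I17Rik, *Top3a* and *Slc4a11*. With 6 points, many of 13891 genes reach high correlations.

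Levels between genes were compared per kb of exon (CPM per kb). In WT, *Gas1* (15.3 ± 0.385) and *Smo* (14.2 ± 0.845) were the highest and overlapped each other. *Gli1* (6.78 ± 1.22), *Gli3* (5.94 ± 0.207), *Ptch1* (4.87 ± 0.966) and *Gli2* (4.01 ± 0.692) followed, and each overlapped the next in this order. *Sufu* (2.12 ± 0.133), *Shh* (2.02 ± 0.429) and *Hhip* (1.17 ± 0.237; SD, n = 3 each) were the lowest, with *Hhip* below *Shh* in all 3 WT libraries. In TG the order was the same except that *Gli3*, at 4.23 ± 0.900 (SD, n = 3), stood at rank 6 in place of rank 4, behind *Ptch1* (5.43 ± 0.992) and *Gli2* (4.68 ± 1.09), from which it did not differ beyond the spread. In TG the ranges of *Gas1* (18.1 to 22.7) and *Smo* (13.4 to 15.4) no longer overlapped.

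**Figure D3:**
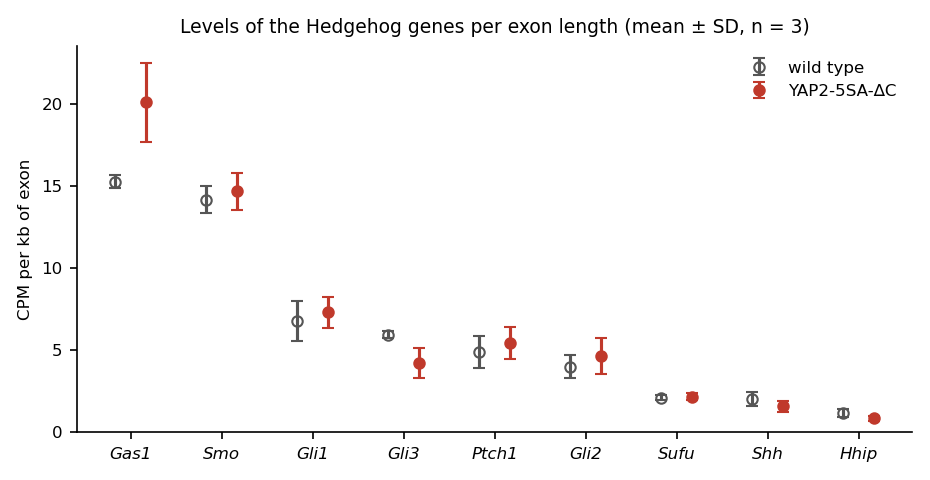
Level per kb of exon (CPM per kb, vertical axis from 0) of the 9 Hedgehog genes in wild type (open grey) and YAP2-5SA-∆C skin (filled red), as mean ± SD over 3 mice, ordered by the wild type level. *Gas1* and *Smo* stand above the rest in both genotypes, and *Gli3* is the fourth in wild type and the sixth in YAP2-5SA-∆C skin.

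A further 49 genes of the pathway were examined to set the 9 in context, of which 46 passed the count filter. *Ihh*, another Hedgehog ligand (1 to 4 counts per library), and the target genes *Foxf1* and *Foxf2* (at most 2) did not pass. QL called 0 of the 46, of which 15 had an unadjusted p under 0.05 against 26.3% of all tested genes, and voom also called 0. LRT called 3 of 46, all lower in TG, where it called 10.4% of all genes, and DESeq2 called 4. The genotypes did not overlap in 15 of the 46, which is close to the 33.8% of all tested genes in either direction. Of these 15, 2 were higher and 13 lower in TG, and the split by direction over all genes was not examined. The 2 higher include *Dhh*, which passed the count filter only through its TG libraries. The log2 fold change was positive in 13 and negative in 33, with a median of -0.09 beside -0.01 over all genes.

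Among the genes of ligand production and release, *Dhh*, the ligand made by Schwann cells, was at 0.660, 0.785 and 0.666 CPM in WT and 1.22, 1.29 and 0.999 CPM in TG. The TG values were all higher, at counts of 7 to 22 per library, and the log2 fold change was 0.72 (edgeR QL FDR 0.125). *Dhh* reached the filter of 1 CPM, applied before TMM scaling, only through its 3 TG libraries. A gene so near the floor enters the tested set in this way only if TG is higher, so the separation is no evidence of a difference. The Schwann cell list, of which *Mbp* was the highest in CPM, was at 67.1 to 94.9 summed CPM in WT and 83.8 to 103 in TG. Either edgeR test called 0 of its 5 genes, with 1 at an unadjusted QL p under 0.05 against 26.3% of all genes. The part of Schwann cells in the *Dhh* values was not tested. In this role, 0 of 6 tested genes passed either edgeR test, with 2 at an unadjusted QL p under 0.05 against 26.3% of all genes.

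Among receptors and co-receptors, *Lrp2*, which encodes the large endocytic receptor megalin, had the largest log2 fold change of the 46 in size. Its levels were 2.69, 2.98 and 3.71 CPM in WT and 1.67, 0.530 and 0.499 CPM in TG, from 39 to 57 counts in WT and 8 to 30 in TG. All TG mice lay below all WT mice. The log2 fold change was -1.76 (SE 0.44), and the edgeR FDR was 0.0692 in QL and 3.30e-06 in LRT. The other genes of this role did not pass either test. The co-receptors *Cdon* and *Boc* had log2 fold changes of 0.39 (edgeR QL FDR 0.127) and 0.09 (edgeR QL FDR 0.442). *Cdon*, like its fellow co-receptor *Gas1*, was highest in TG replicate 2, at 67.2 CPM against 41.8 to 46.4 CPM in WT, but TG replicate 3 (46.2 CPM) lay within the WT range.

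None of the 11 genes of the cilium and of SMO signalling, and none of the 15 kinases and degradation factors that act on GLI proteins, passed either edgeR test. At an unadjusted QL p under 0.05 there were 3 and 5, against 26.3% of all genes. *Kif7*, the ciliary kinesin that regulates GLI processing, was at 11.7 CPM in both genotypes (edgeR QL FDR 0.987). *Arl13b*, a ciliary GTPase, was at 55.8 to 56.9 CPM in WT and 42.9 to 48.4 CPM in TG. It was called by DESeq2 alone (log2 fold change -0.28, adjusted p 0.0406), and its edgeR QL FDR was 0.0616.

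Of the 9 tested genes commonly used as targets, LRT called 2, both lower in TG, where it called 10.4% of all genes. *Mycn*, a transcription factor that drives proliferation, was at 25.1, 21.4 and 22.6 CPM in WT and 17.6, 12.5 and 15.1 CPM in TG, and its log2 fold change was -0.61 (SE 0.13; edgeR FDR 0.0611 in QL and 0.00919 in LRT). *Foxe1*, a forkhead factor of the hair follicle, was at 11.05, 10.4 and 10.7 CPM in WT and 6.84, 2.35 and 7.18 CPM in TG, and its log2 fold change was -0.97 (SE 0.36; edgeR FDR 0.150 in QL and 0.0147 in LRT). For both genes all TG mice lay below all WT mice and TG replicate 2 was the lowest. LRT no longer called *Mycn* without WT replicate 1 or WT replicate 3, nor *Foxe1* without WT replicate 2 or WT replicate 3. *Ccnd1* and *Ccnd2*, which encode D-type cyclins, had log2 fold changes of -0.38 (edgeR QL FDR 0.207) and -0.05 (FDR 0.845).

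**Figure D4:**
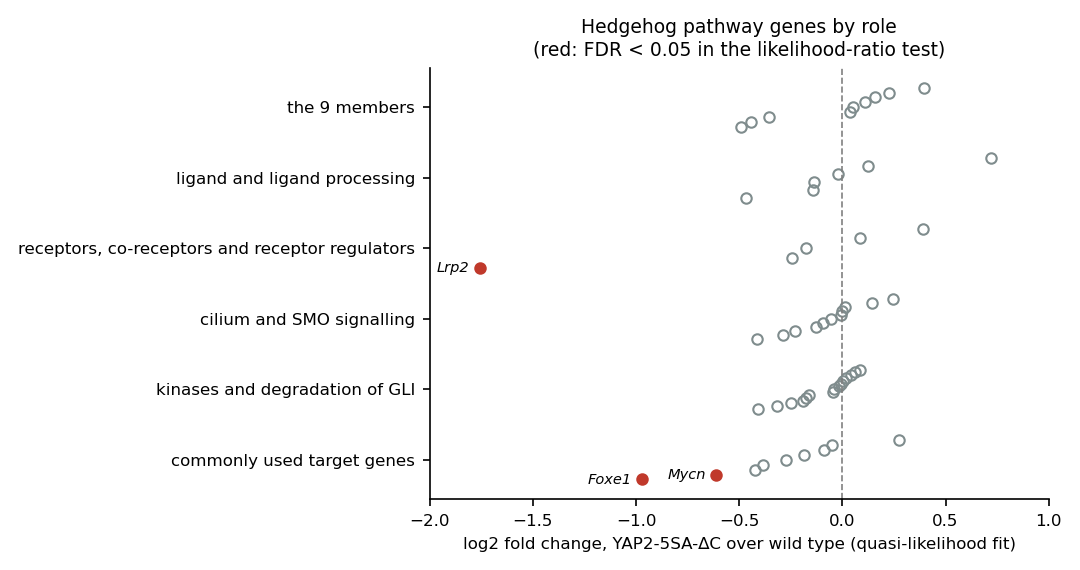
Log2 fold change in edgeR's quasi-likelihood fit (horizontal axis, YAP2-5SA-∆C over wild type) of the 9 Hedgehog genes and 46 other tested genes of the pathway, in rows by role, 1 point per gene. Filled red points are the 3 genes that LRT called, *Lrp2*, *Mycn* and *Foxe1*, all of them lower in the transgenic skin, and 33 of the 46 other genes lie to the left of 0.

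Since the pathway is used by the hair follicle and dermis, the members are set beside marker genes of those cells. The 13 hair shaft and inner root sheath genes with counts (of 14 listed) summed to 14845 to 19502 CPM in WT and to 7756, 1521 and 9808 CPM in TG replicates 1, 2 and 3. LRT called 12 of these 13 lower in TG, where it called 10.4% of all genes. The exception was *Tchh*, the highest of them in mean CPM over the 6 libraries, though not per kb of exon. QL called 0, with 12 at an unadjusted p under 0.05 against 26.3% of all genes. The list of 7 transcription factors of the hair matrix summed to 461 to 523 CPM in WT and to 345, 261 and 360 CPM in TG. Of these 7, 6 were lower in LRT and 0 passed QL, with 6 at an unadjusted p under 0.05, against 10.4%, 1.91% and 26.3% of all genes. *Gata3* had a log2 fold change of 0.22. It was the highest of them in CPM over the 6 libraries together, though below *Dlx3* in each WT library. Per kb of exon, *Dlx3* stood at 50.4 in WT and 30.3 in TG, and *Gata3* at 26.0 and 30.3. *Shh*, *Hhip* and *Gli3* shared with both lists the position of TG replicate 2 as the lowest library. The list of hair follicle stem cell genes, of which *Krt15* was the highest, stood at 583 to 791 summed CPM in WT and 691 to 925 in TG, with TG replicate 2 the highest library. QL called 0 of its 7 genes (2 at an unadjusted p under 0.05, against 26.3% of all genes). LRT called 1, against 10.4% of all genes. The part of hair follicle content in the members' values was not tested.

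Of the dermal lists, the 9 fibroblast genes, of which *Col3a1* was the highest, summed to 9696 to 13063 CPM in WT and 12528 to 16281 CPM in TG. The log2 fold change was positive in 9 of 9, and either edgeR test called 0 (4 at an unadjusted QL p under 0.05, against 26.3% of all genes). TG replicate 2 was the highest library of this list, as it was for *Gas1*, *Gli2*, *Ptch1* and *Gli1*. That position is not particular to fibroblasts. The same library was also the highest for the basal and suprabasal keratinocyte, hair follicle stem cell and Schwann cell lists. The dermal papilla list summed to 69.5 to 88.9 CPM in WT and 55.7 to 71.6 CPM in TG, with 5 of 8 tested genes positive and 3 negative in log2 fold change and a median of 0.10. In LRT, which called 10.4% of all genes, 1 of the 8, *Corin*, was lower. The sum was thus lower in TG while the median gene was higher, and the genotypes overlapped in the sums of both dermal lists. *Wif1* was the highest gene of that list, and *Sox2*, a papilla marker of certain hair types, lay under 1 CPM in every library. The melanocyte list, another population of the growing follicle, summed to 426 to 497 CPM in WT and 153 to 270 CPM in TG, and 2 of its 6 genes, *Dct* and *Tyrp1*, fell in the main test (edgeR QL FDR 0.0467 for each), against 1.91% of all genes called. All 6 were lower in LRT, did not overlap between the genotypes and had an unadjusted QL p under 0.05, against 10.4%, 33.8% and 26.3% of all genes. The QL calls were likewise lost in the 3 fits with a library left out that called 0 genes. The part of dermal and pigment cells in the members' values was not tested.

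**Figure D5:**
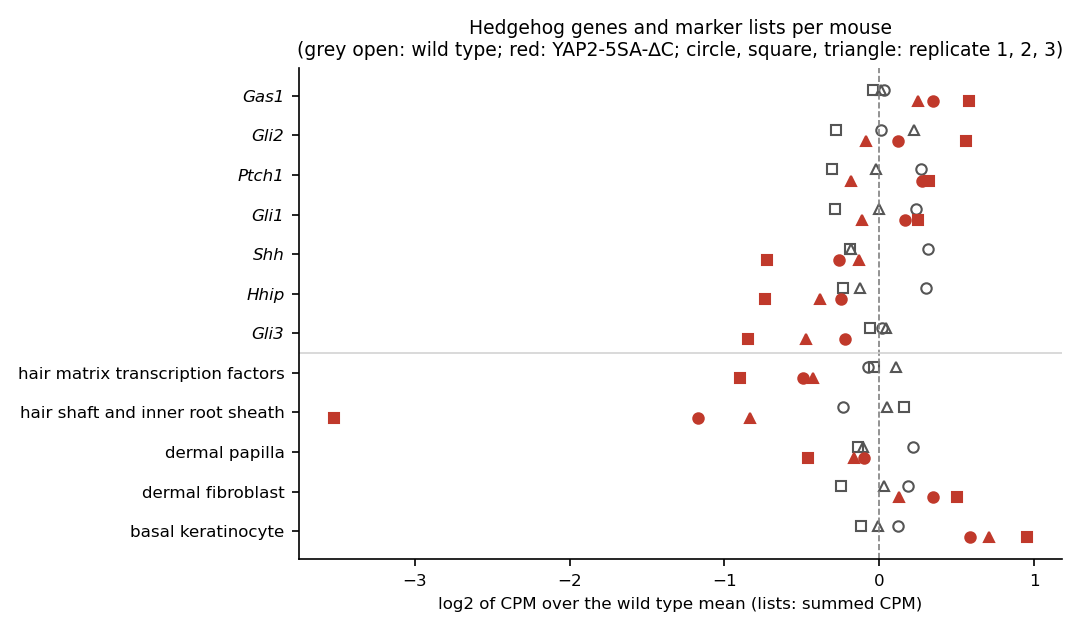
Level in each mouse relative to the wild type mean (log2 of CPM over that mean, horizontal axis) for 7 Hedgehog genes (above the line) and for the summed CPM of 5 marker lists (below it), with open grey symbols for wild type, filled red for YAP2-5SA-∆C, and circle, square and triangle for replicates 1, 2 and 3. The red square, TG replicate 2, is the lowest point for *Shh*, *Hhip*, *Gli3*, both hair lists and the dermal papilla list, and the highest for *Gas1*, *Gli2*, *Ptch1*, *Gli1*, the fibroblast list and the basal keratinocyte list.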

How the data were processed

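The table the authors deposited holds raw counts for each Ensembl gene in 6 libraries (3 WT, 3 TG, each from a separate mouse). Paired-end reads were mapped to GRCm38 and uniquely mapped reads were counted with HTSeq-count. The submitters' processing notes name TopHat2 2.0.12 and Bowtie2 2.1.0, whereas the methods of the study name another TopHat2 release. The annotation release and strand setting are not given in the sources used here, and the labels name both a stranded total RNA kit and mRNA libraries.

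Identifiers were matched to GENCODE M21, in which 558 of 26579 are absent. The 15102 genes that reached 1 CPM in 3 or more libraries were scaled with TMM and tested in R 4.3.3 with edgeR 4.0.16 (glmQLFit and glmQLFTest, QL), with limma 3.58.1 (voom), DESeq2 1.42.0 and glmLRT (LRT) as alternatives, Benjamini-Hochberg adjustment and a threshold of 0.05. The standard error (SE) is the log2 fold change over the square root of F. CPM per kb used the length of the merged exons. The tests were first tested on simulated data.

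The members and lists were chosen with earlier results of these data known. Named genes are all members, pathway genes called by either edgeR test, 9 fixed pathway genes (*Ihh*, *Dhh*, *Cdon*, *Boc*, *Lrp2*, *Kif7*, *Ccnd1*, *Ccnd2*, *Mycn*), the 3 protein-coding genes most like each member (log2 CPM, prior count 2) and the highest gene of each marker list given. The highest gene of a list is by mean CPM over the 6 libraries, not corrected for exon length. *Arl13b*, *Foxf1*, *Foxf2*, *Corin*, *Sox2*, *Dlx3* and *Tyrp1* were named after their values were seen. An item that the rule also covers is not reported here. Marker lists for further cell types were computed and not set beside the members: stress and suprabasal keratinocytes, sebaceous gland, muscle, fat, immune and vessel cells. Of these, QL called 3 of 6 stress keratinocyte genes and 2 of 5 macrophage genes, all higher in TG, against 1.91% of all genes. It called 0 in the others.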

Additional observations from a re-analysis of the deposited data

How the results depend on the processing

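Over the 22 alternatives to the main test, *Shh*, *Ptch1*, *Gas1*, *Hhip*, *Smo*, *Gli2* and *Gli3* kept the direction of their log2 fold change. With all 6 libraries, *Gas1* ranged from 0.39 to 0.43 and *Gli3* from -0.51 to -0.45, and DESeq2 was the setting that called them (0.41 and -0.48). Leaving out 1 library at a time, the main test gave 0.31 to 0.47 for *Gas1* and -0.63 to -0.32 for *Gli3*, and LRT, a set of fits chosen after seeing the data, gave 0.31 to 0.47 and -0.63 to -0.32. Of the 9 genes, 0 to 1 were called in either set. *Gli1* reversed without WT replicate 2 (-0.0165 in the main test and -0.0181 in LRT), and *Sufu* without WT replicate 3 (-0.00297 and -0.00250). Their highest values in the main test with a library left out were 0.25 and 0.11.

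Of the other pathway genes, 3 were called with LRT and 4 with DESeq2, 0 to 1 in the main test with a library left out (*Lrp2* without TG replicate 1, *Foxe1* without TG replicate 2) and 1 to 4 in LRT, where *Lrp2* was called in all 6 fits. Over all genes the main test called 288, against 444 with library size alone, 497 without a count filter, 1568 with LRT and 1583 with DESeq2. With a library left out it called 0 to 817 (142 without WT replicate 1, 83 without TG replicate 1). It called 0 without WT replicate 2, WT replicate 3 or TG replicate 3, although 2726, 2844 and 3691 genes had p under 0.05 before adjustment. LRT called 1694, 617 and 760 without WT replicates 1, 2 and 3 and 1401, 1248 and 1364 without TG replicates 1, 2 and 3. The replicate block called 0 genes in the quasi-likelihood test of edgeR (2949 at an unadjusted p under 0.05) and 0 of the 9 members (3 at an unadjusted p under 0.05). Same-numbered mice did not deviate together (correlations of -0.33, -0.23 and -0.05). These deviations are from means of only 3 mice per genotype, so they cannot decide whether the mice were paired, by litter or otherwise. The cause of these differences between settings was not tested. The 53 counts of *Shh* in the smallest library carry a counting error of 13.7%, the largest among the 9 genes.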
